A study of Homo sapiens with 2 samples.

Results

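Plakins are giant cytolinker proteins, and the 7 human genes followed here were MACF1, DST, PLEC, DSP, EPPK1, PPL and EVPL. They were examined for RNA contacts of SF3B1, a core protein of U2 snRNP, the small nuclear ribonucleoprotein that selects the branch point. The data were HITS-CLIP tags, short reads of RNA that ultraviolet light had crosslinked to a protein and an antibody had recovered. The cells were MDA-231-LM2, human breast cancer cells selected from MDA-MB-231 for metastasis to the lung, with no other genotype or treatment named and with no input or control library. The labels give 2 biological replicates of 1 group and an anti-SF3B1 antibody, whereas their protocol text names SNRBP2 as the protein. Both replicates were pooled in the deposited peak list, so no value below has a replicate error and no test between conditions was possible. An interval was taken as a member when the list gave it under the NCBI gene number of one of the 7 genes and its midpoint lay inside that gene, which 10 of the 1406 distinct intervals did.

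Plakins tie the cytoskeleton together and fasten it to membranes. MACF1 and DST are spectraplakins: calponin homology domains at one end bind actin, a long rod of spectrin repeats follows, and a GAR domain near the other end binds microtubules. PLEC encodes plectin, which holds intermediate filaments to actin, to organelles and to the hemidesmosome, the junction that fixes epithelial cells to the basement membrane. DSP encodes desmoplakin, which anchors keratin filaments at desmosomes, the junctions between cells. PPL and EVPL encode periplakin and envoplakin of the cornified envelope of squamous epithelia, and EPPK1 encodes epiplakin, a keratin-binding protein built of plakin repeats. MACF1, DST and PLEC are known for several promoters and many alternatively spliced exons. SF3B1 contacts pre-mRNA near the branch point as introns are recognised.

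The 10 intervals fell in 3 of the 7 plakin genes, each with several: MACF1 held 3, DST 4 and PLEC 3. DSP, EPPK1, PPL and EVPL held 0. The share of plakin genes with an interval was 42.9%, beside 5.29% of all 19987 protein-coding genes compared. The 7 genes are a chosen family and not a random draw of genes, so the share carries no error range and was not tested against 5.29%. A count of 3 or more intervals was found in 3 of 7 plakin genes and in 49 of the 19987, or 0.245%. Since longer genes held intervals more often, the members were also read against genes of like span. Both plakin genes over 100 kb, MACF1 and DST, held 3 or more intervals, beside 8.98% of the 3351 genes of that class with any interval and 0.537% with 3 or more. Of the 5 plakin genes between 20 and 100 kb, PLEC alone held an interval, beside 6.77% of the 7640 genes of that class, of which 0.236% held 3 or more. Transcript levels were not measured, so contact with SF3B1 and abundance of the RNA cannot be told apart in any of these counts.

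MACF1, the microtubule-actin crosslinking factor, held the tallest plakin interval, close to the 3′ end of the gene. The gene spans 403 kb on chromosome 1, from 39084167 to 39487138 (hg38, as for all positions here), and is read on the plus strand. Its interval of 36 tags lay at 39466093 to 39466136. The height is the authors' value, the number of pooled tags at the top of the peak. Upstream of it were an interval of 9 tags at 39457742 to 39457798 and one of 6 tags at 39444635 to 39444676. The 36 tags have an exact Poisson 95% interval of 25.2 to 49.8, above the 4.12 to 17.1 of the 9 tags and the 2.20 to 13.1 of the 6 tags. These intervals cover counting error only, and a height read at the top of a selected peak is biased upward. Within MACF1 the tallest interval was 6.00 times the lowest; among the 49 genes with 3 or more intervals the median of this ratio was 1.80, and 2 genes exceeded MACF1.

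Against the whole list, 36 tags placed the MACF1 interval 26th of the 1306 intervals in protein-coding genes, with 1.91% of them taller. RPL13A, a ribosomal protein gene, also reached 36 tags, at a nested small RNA gene, and NBPF15 reached 35 tags outside any such gene. None of the small RNA genes or pseudogenes inside MACF1 held an interval. That is the usual case, as 65 of the 1306 intervals lay at a nested small RNA gene. The deposited list also gives a value PH0, the same for all peaks of MACF1 (0.03), and the authors' own p-value for each peak. PH0 was read here as the height expected for the gene, in tags; its name and place beside the height are the basis, and no source used here defines it. All expected heights and ratios below rest on this reading. Heights of 36, 9 and 6 tags were 1200, 300.0 and 200.0 times the expected height. The authors' deposited table gave the intervals of 36 and 9 tags its smallest p-value, 1e-100, as it did 18.5% of protein-coding intervals. A value shared so widely does not rank peaks: the authors gave DST intervals of 9 tags, at an expected height of 0.04, a p-value of 1.73e-08. The MACF1 interval of 6 tags had an authors' p-value of 0.000479. Of the 162 intervals with the same expected height of 0.03, in 135 genes, the lowest listed had 5 tags and the highest 41, and the MACF1 interval of 36 tags ranked second.

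The 3 MACF1 intervals lay in a late piece of the gene, short against its 403 kb. Their midpoints lay 360.49, 373.60 and 381.95 kb from the gene start, at 89.5%, 92.7% and 94.8% of the span, and 21.02 kb separated the tallest from the gene's end. From first to last they covered 21.5 kb, or 5.33% of the span, beside medians of 21.5 kb and 39.3% over the 49 genes with 3 or more intervals. The distance itself was thus at the median, and the share of the span was below it. The RefSeq promoter table holds 3 transcription starts for MACF1, at 39084167, 39204695 and 39409073. All 3 intervals lay downstream of the last of these, the nearest by 35.6 kb, where 19.4% of the span lies, so every start of the table was upstream of every interval. The last start is shown because it bounds the piece with intervals; the sequence (RefSeq, GRCh38.p14, chr1:39408823-39409122, plus strand) runs from 250 bases before the start, in lower case, to 50 bases from the start on, in capitals.
MACF1 start 3: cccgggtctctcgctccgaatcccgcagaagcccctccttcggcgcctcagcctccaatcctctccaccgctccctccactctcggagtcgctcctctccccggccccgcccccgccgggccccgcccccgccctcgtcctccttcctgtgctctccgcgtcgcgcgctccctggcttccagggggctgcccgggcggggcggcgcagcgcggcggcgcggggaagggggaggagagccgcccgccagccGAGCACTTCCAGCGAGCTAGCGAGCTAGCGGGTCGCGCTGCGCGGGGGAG
It is 77.0% G and C and holds 40 CG dinucleotides, more than 92.4% of the 35116 promoters of the table. The GC box GGGCGG, searched on both strands, occurs 6 times in it and at least once in 45.0% of all promoters. CCAAT occurs once, beside 34.6% of all promoters that hold it, and TATAAA does not occur, beside 11.5%.

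**Figure D1:**
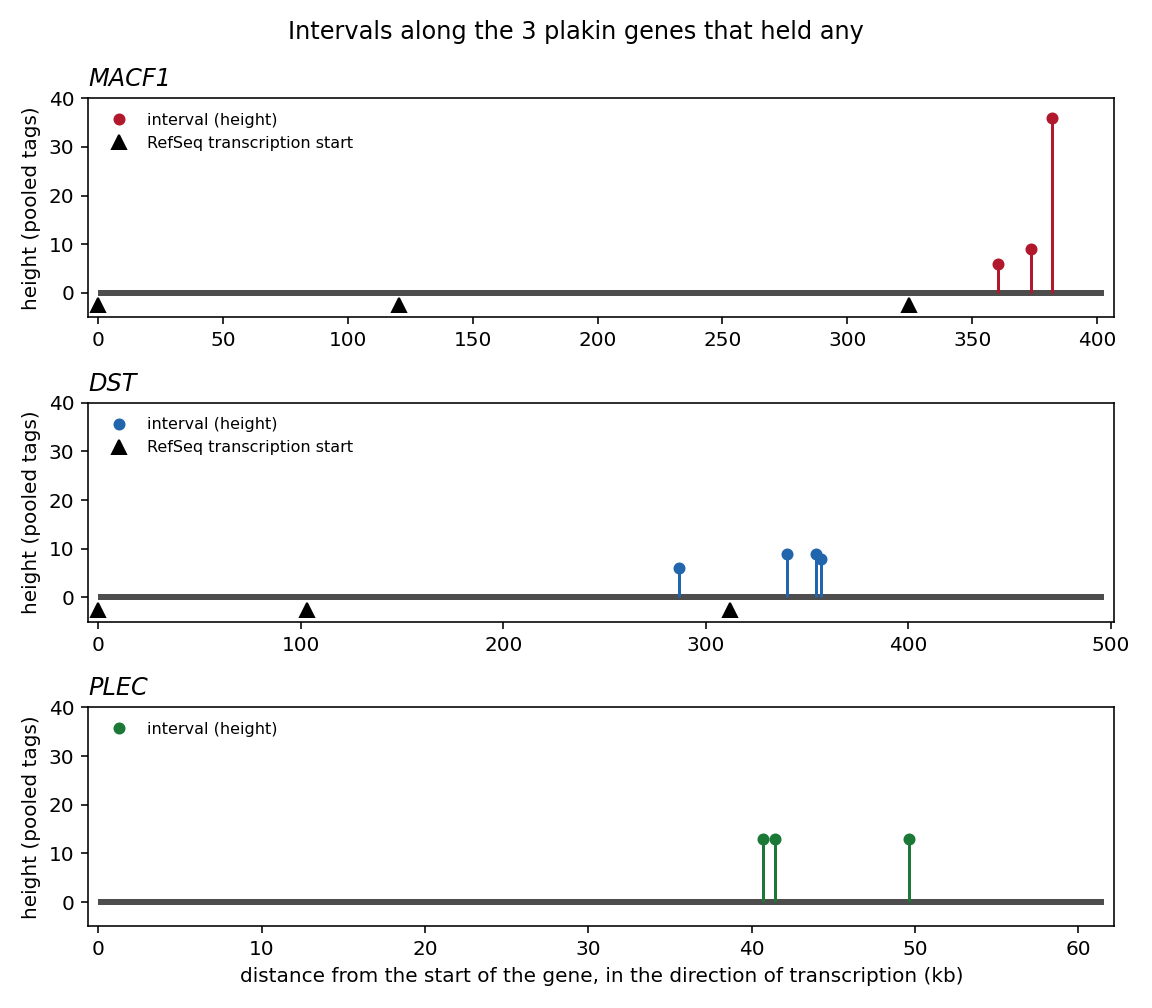
Heights of the intervals (pooled tags, vertical axis) along MACF1, DST and PLEC (kb from the gene start in the direction of transcription, horizontal axis, a scale of its own for each gene). Black triangles mark RefSeq transcription starts of MACF1 and DST. All 3 MACF1 intervals lie after the third start; in DST 3 lie after it and 1 before.

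DST, the gene of dystonin or BPAG1, the other spectraplakin, held the most intervals of the family, with heights around the median of the list. It spans 497 kb on chromosome 6, from 56457996 to 56954830, on the minus strand, and is known for neuronal, muscle and epithelial isoforms. From 5′ to 3′, its intervals had 6 tags at 56667805 to 56667846, 9 tags at 56614477 to 56614523, 9 tags at 56600229 to 56600272 and 8 tags at 56598013 to 56598055. Their exact Poisson intervals overlapped, from 2.20 to 13.1 for 6 tags up to 4.12 to 17.1 for 9 tags, so the heights have no order beyond counting error. Of the 4, 3 exceeded the median of 7 tags over all protein-coding intervals, and their median of 8.5 tags stood beside 6 tags in genes over 100 kb. Only 12 protein-coding genes held 4 or more intervals, and of the 318 protein-coding genes longer than DST, 22 held any. The expected height was 0.04 tags, and the heights were 150.0, 225, 225 and 200.0 times that. The authors' deposited table gave p-values of 0.00499 for the interval of 6 tags, 1.73e-08 for both of 9 tags and 1.91e-07 for that of 8. Of the 91 intervals with the same expected height, the lowest listed had 5 tags and the highest 26.

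Positions in DST were spread more widely than in MACF1 and divided at an internal start. The midpoints lay 287.0, 340.33, 354.58 and 356.80 kb from the gene start, at 57.8%, 68.5%, 71.4% and 71.8% of the span. The 2 most 3′ were 2.22 kb apart, and all 4 covered 69.8 kb, or 14.0% of the span. RefSeq starts of DST were at 56954830, 56851905 and 56642889. The interval of 6 tags lay 24.9 kb upstream of the third start and downstream of the second, where a transcript from the third start would not reach. The other 3 lay downstream of the third start, the nearest by 28.4 kb, within the last 37.2% of the span. The third start is shown because it separates the intervals (RefSeq, GRCh38.p14, chr6:56642840-56643139, minus strand), again with the 50 bases from the start on in capitals.
DST start 3: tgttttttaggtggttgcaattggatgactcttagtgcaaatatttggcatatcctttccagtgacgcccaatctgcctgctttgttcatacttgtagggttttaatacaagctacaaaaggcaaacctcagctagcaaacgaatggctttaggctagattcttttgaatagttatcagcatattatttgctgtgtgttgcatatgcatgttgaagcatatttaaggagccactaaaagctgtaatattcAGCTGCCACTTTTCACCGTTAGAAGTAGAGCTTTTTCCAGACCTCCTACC
With 39.3% G and C and 3 CG dinucleotides, it differs from the last start of MACF1: 10.2% of all promoters had a lower G and C content. GGGCGG and TATAAA do not occur in it on either strand, and CCAAT occurs 2 times. Over both spectraplakins, 6 of 7 intervals lay downstream of the last start, where on average 29.6% of the span lies when each interval is given its gene's value. In the 299 other protein-coding genes with several starts and an interval on the gene's strand, 331 of 377 intervals did (87.8%), with 70.5% of the span there.

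PLEC, the plectin gene, combined the shortest span of the 3 with the highest expected height. It spans 61.6 kb on chromosome 8, from 143915153 to 143976745, and its intervals were on the minus strand. All 3 had 13 tags, at 143936017 to 143936076, at 143935323 to 143935368 and at 143927060 to 143927108. Each has an exact Poisson interval of 6.92 to 22.2, below that of the tallest MACF1 interval and overlapping those of all DST intervals. PLEC was the only 1 of the 49 genes with 3 or more intervals in which all heights were equal. Of the 1306 protein-coding intervals, 14.8% were taller than 13 tags. The expected height of 0.59 tags made each PLEC interval 22.0 times the expected one, the lowest ratio among the plakins, and the authors' deposited table gave each a p-value of 2.08e-05. The 6 intervals listed anywhere at an expected height of 0.59, in 3 genes, had 10 to 14 tags, so intervals as low as those of DST were not listed at this expected height.

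Within PLEC, 2 of the intervals were near neighbours. The midpoints lay 40.70, 41.40 and 49.66 kb from the gene start, at 66.1%, 67.2% and 80.6% of the span. The first pair was 701 nt apart and the third followed 8.26 kb further on. Together they covered 8.96 kb, 14.6% of the span. PLEC had 4.87 intervals per 100 kb, beside a median of 2.31 among genes of 20 to 100 kb that held any. MACF1 had 0.744 and DST 0.805, beside a median of 0.664 among genes over 100 kb that held any. Over all 7 genes, with 1103 kb of span, the density was 0.906 per 100 kb, beside 0.102 over all protein-coding genes. Genes without an interval are counted in both. By span class, the latter was 0.172 for genes of 20 to 100 kb and 0.0466 for genes over 100 kb.

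**Figure D2:**
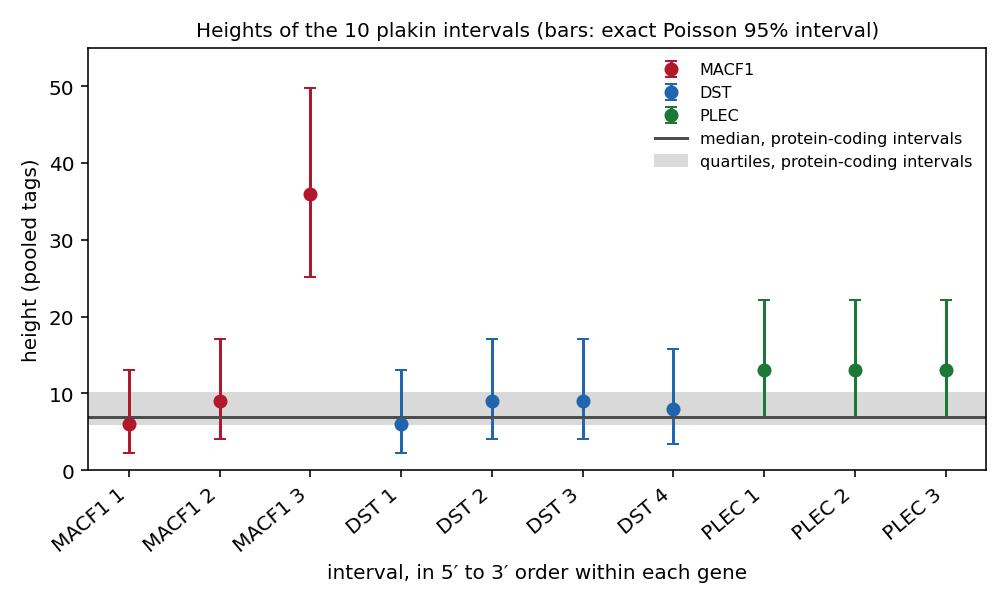
Height (pooled tags) of each of the 10 plakin intervals in 5′ to 3′ order within its gene, with exact Poisson 95% intervals, which cover counting error only. The line and band give the median of 7 and the quartiles of 6 and 10 tags of all protein-coding intervals; the third MACF1 interval, of 36 tags, stands above the other 9.

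Taken as a set, the plakin intervals had a higher median height than all protein-coding intervals, and all lay in the later part of their genes. Their median height was 9 tags, beside 7 tags over all protein-coding intervals, and 8 of 10 exceeded 7 tags, beside 46.4% of all. Among the 8 were the 3 of PLEC, whose expected height was 0.59. No interval below 10 tags was listed in any protein-coding gene at that value, so these 3 could not have fallen under 7 tags. The median ratio of height to expected height was 200.0, with a range of 22.0 to 1200, beside 167 (quartiles 81.6 and 333) over the 1268 interval and gene pairs with an expected height above 0. Widths ran from 42 to 60 nt with a median of 45, beside a median of 43 over all. All 10 intervals lay beyond 50% of the gene's span, from 57.8% to 94.8% with a median of 71.6%. Protein-coding intervals in general leaned the same way, with 66.9% beyond 50% and a median of 66.2%. With no exon annotation used, intervals in exons, introns or near splice sites were not told apart.

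**Figure D3:**
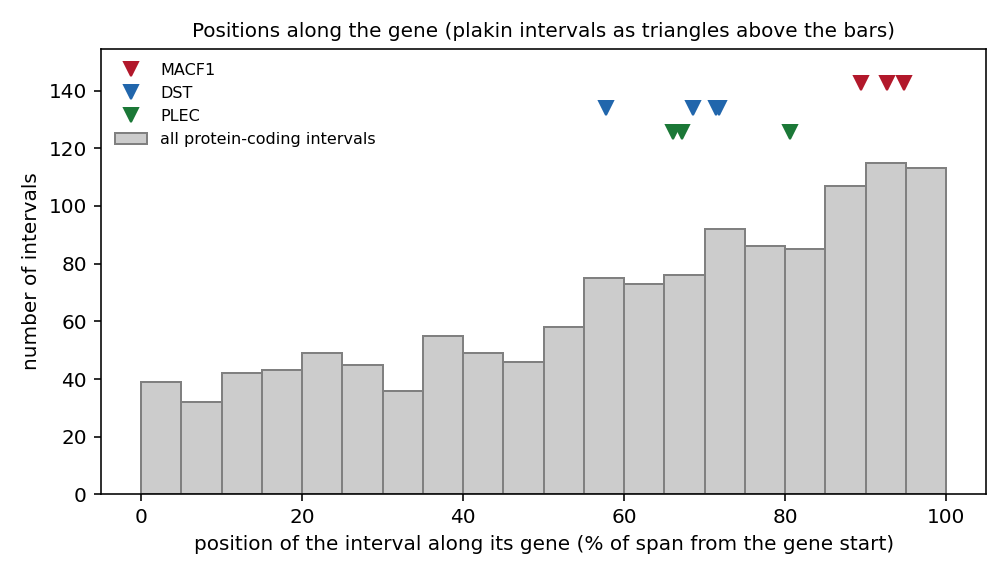
Number of protein-coding intervals (vertical axis) by position along the gene, in % of its span from the start (horizontal axis, bars of 5%). Triangles mark the plakin intervals at their positions; their height on the page carries no value. The MACF1 intervals sit at 89.5% to 94.8%, those of PLEC at 66.1% to 80.6% and those of DST at 57.8% to 71.8%.

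The expected heights of the 3 genes were above the median for genes of their length. In PLEC it was 14.7 times the median of 0.04 over genes of 20 to 100 kb with an interval, and 2 of the 516 other genes had a higher one. In DST it was 4.0 times the median of 0.01 over genes above 100 kb, with 25 of 300 other genes higher. In MACF1 it was 3.0 times that median, with 41 of 300 higher. Of the 22 genes with an interval that were at least as long as DST, 0 reached its expected height. Of the 37 at least as long as MACF1, 2 reached that of MACF1, and DST itself was among these 2. The deposited list rounds these values to 0.01 tags, so low ones are coarse. How the authors computed this value is not given in the sources used here, and its relation to transcript level was not tested.

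**Figure D4:**
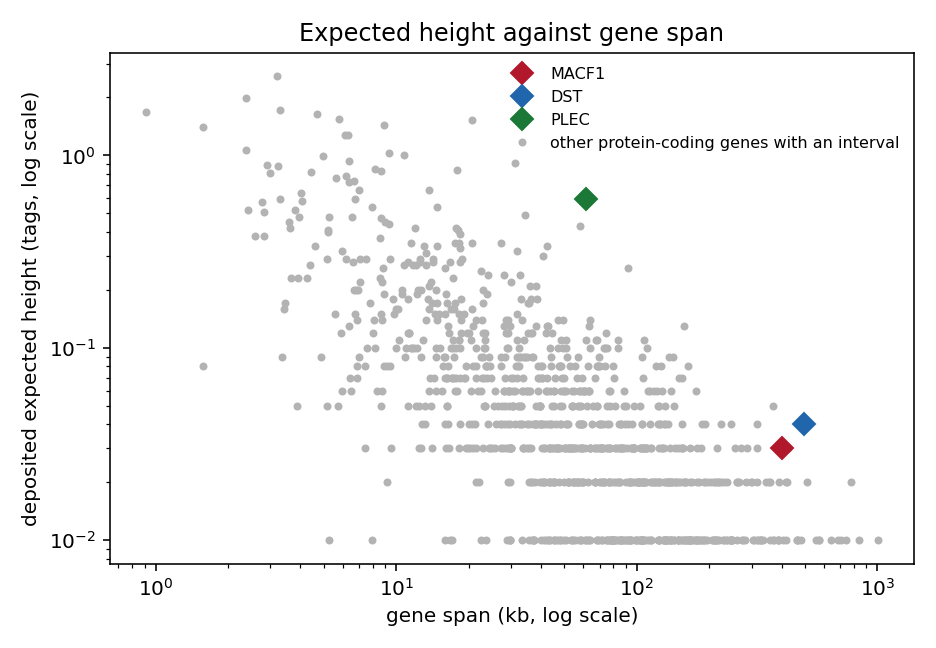
Expected height, as PH0 of the deposited list was read (tags, log scale) against gene span (kb, log scale) for MACF1, DST and PLEC (diamonds) and the other protein-coding genes with an interval (grey points); 45 genes with an expected height of 0 are not drawn. All 3 plakin genes lie near the upper edge of the points at their span, at 0.03, 0.04 and 0.59 tags.

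The other plakin genes, 4 of the 7, held no interval. DSP spans 45.0 kb on chromosome 6 (7541671 to 7586714), PPL 54.6 kb on chromosome 16 (4882507 to 4937148), EVPL 20.5 kb on chromosome 17 (76006845 to 76027306) and EPPK1 21.9 kb on chromosome 8 (143857324 to 143879194). None of their spans held an interval listed under another gene either. EPPK1 is the neighbour of PLEC, and the nearest interval to it was the most 3′ one of PLEC, 47.9 kb away. The list holds significant peaks only and gives an expected height only for genes with a peak. A gene with no interval may thus have had tags below the authors' threshold, a transcript with little or no SF3B1 contact, or no transcript. These cannot be told apart here.

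Inside the 7 gene spans only the plakin genes held intervals. The nearest interval outside the span lay 77.1 kb from MACF1, 107 kb from PLEC and 3460 kb from DST. In all, 12 other annotated genes lie in or across the 7 spans, among them the antisense RNA DST-AS1, the miRNA gene MIR661 inside PLEC and the U6 pseudogenes RNU6-608P in MACF1 and RNU6-626P in DST, and they held 0 intervals. All 7 intervals of MACF1 and DST were on the strand of the gene, as were all 1095 protein-coding intervals for which the RefSeq table gave a strand. Intervals were taken under the gene numbers of the list, so this agreement may be set by how genes were assigned. It says nothing particular about the plakin genes. No position of a plakin interval was listed under a second gene.

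Genes with the same number of intervals and the nearest span were picked to show how usual these profiles were. For MACF1 these were ASAP1 (392 kb), a GTPase-activating protein of ARF, TRIO (367 kb), a guanine nucleotide exchange factor, and NEDD4L (357 kb), a ubiquitin ligase. The tallest interval had 36 tags in MACF1, against 6, 8 and 11 tags in these genes in that order. For PLEC they were EZH2 (76.9 kb), a histone methyltransferase, SMC1A (48.6 kb), a cohesin subunit, and SKI (81.9 kb), a repressor of TGF-beta signalling. The tallest had 13 tags in PLEC, against 22, 23 and 9 tags in these, and the expected height was 0.59 in PLEC, against 0.06, 0.11 and 0.03. For DST only 7 other genes held 4 intervals. Those nearest in span were DIP2C (415 kb), TEAD1 (270 kb), a transcription factor of the Hippo pathway, and POLE (63.6 kb), a DNA polymerase subunit and much shorter. The tallest had 9 tags in DST, against 48, 25 and 12 tags in these, and that of DIP2C lay at a nested small RNA pseudogene. The likeness rests on span and number of intervals in 1 pooled list and on nothing else.

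Partners and structural relatives of the plakins were counted in 7 lists, and 21 of their 117 genes held an interval (17.9%, beside 5.29% of all protein-coding genes), with a median height of 8 tags. The hemidesmosome list had 4 of 9 genes. In it ITGA3 held intervals of 10, 12 and 10 tags, and ITGB4, the integrin chain that plectin binds, 1 of 10 tags. ITGB1 and LAMA3 held 1 of 6 tags each. The list was drawn wider than direct partners of plectin and DST. ITGA3 and ITGB1 encode an integrin other than that of the hemidesmosome, and LAMA3 a laminin chain outside the cell. The desmosome list, partners of desmoplakin, had 1 of 13 genes, PKP4, a plakophilin, with intervals of 6, 9 and 5 tags. Among intermediate filament genes 3 of 23 held 1 interval each, VIM with 18 tags, KRT7 with 16 and LMNA, a nuclear lamin, with 10. The cornified envelope list had 1 of 14, ANXA1 with 7 tags. The 2 junction lists differed in count, and the desmosome share of 7.69% was near the 5.29% of all protein-coding genes. The count of the hemidesmosome list rests in part on ITGA3 and ITGB1, the lists are small, and the difference was not tested.

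The lists of relatives by domain also had larger shares with an interval than all protein-coding genes. In the spectrin superfamily, which shares the rod repeats of MACF1 and DST, 5 of 16 genes held an interval, among them ACTN4 with 8 and 14 tags, SPTBN1 with 8 and 7, ACTN1 with 8 and SYNE2 with 7. Other actin binders with calponin homology domains had 3 of 19, among them CNN3 and IQGAP1 with 1 interval of 6 tags each. The list of microtubule partners and GAR domain genes had 4 of 23: DYNC1H1, the dynein heavy chain, with 21 and 11 tags, MAP1B with 14, MAP4 with 8 and CKAP5 with 6. None of these 30 partner intervals reached the 36 tags of MACF1. Only 1.91% of all protein-coding intervals were taller than that, so 30 intervals from anywhere in the list could well hold none. Of the 21, 10 span over 100 kb, where a larger share of genes held an interval (8.98%) but fewer lay per 100 kb of span (0.0466, beside 0.102 over all protein-coding genes).

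**Figure D5:**
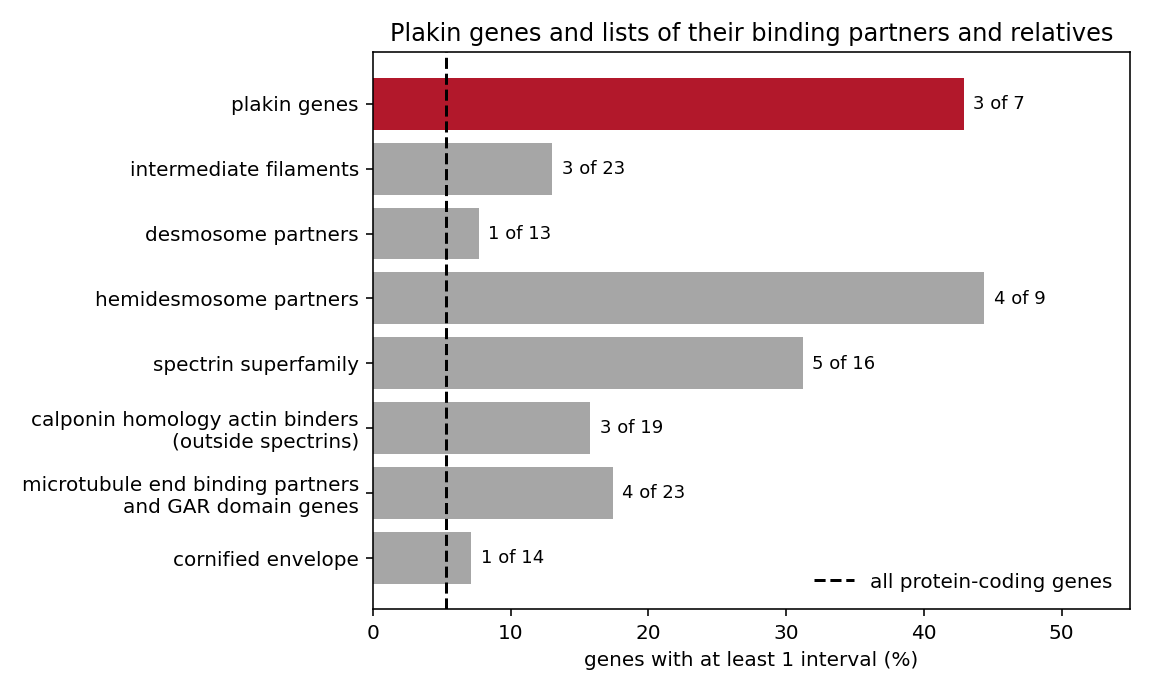
Share of genes with at least 1 interval (%, horizontal axis) among the 7 plakin genes (red) and in 7 lists of partners and relatives (grey), with the counts at the bars. The dashed line marks the 5.29% of all protein-coding genes. The plakin genes (3 of 7) and the hemidesmosome list (4 of 9, with ITGA3 and ITGB1 counted) had the highest shares, both from few genes.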

How the data were processed

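HITS-CLIP libraries of 2 replicates were described by 1 peak list, which the authors made from pooled unique tags. As signal, the authors deposited a height in pooled tags for each peak, not normalized; the text field adds a gene number, a value PH0, read here as an expected height, and a p-value. BWA 0.7.17, cutadapt 2.3 and the build hg38 are named, per the submitters' processing notes. The peak caller and its threshold are not given in the sources used here. Read depth per library was unknown.

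Duplicate rows of 1 position and strand were merged. Genes were named through RefSeq (GRCh38.p14); protein-coding genes of the Y chromosome or without a place were left out of the 19987 compared. Direction follows the strand of the interval. Starts and sequences are from the RefSeq promoter table, which held 3 of the 7 plakin genes; those of the others were not used here. Assignment was tested on simulated data. The members and lists were chosen with earlier results of these data known, so all counts are descriptions, and no test was run. Named genes are all members and their intervals, partner genes with an interval and, for each gene with intervals, the 3 of equal interval number nearest in span; RPL13A was chosen after its value was seen. Some partner genes are not reported here. Alternatives were other assignment rules, intervals above the median height, merging within 50 nt, leaving out genes, the mean, the tallest interval of each gene and 1 tag added to both heights. Tools were scipy 1.17.1, pandas 2.3.3, numpy 2.4.6 and matplotlib 3.10.9 under Python 3.11.15.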

Additional observations from a re-analysis of the deposited data

How the results depend on the processing

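Of 14 alternatives, 13 left the values within 1.5 times or, for the median height, within the Poisson interval of a count of 9 tags. That interval is for 1 count and does not measure the spread of a median, so it is a wide allowance. Among the 13, 2 could change nothing. These were merging within 50 nt, as the nearest midpoints were 701 nt apart, and leaving out intervals at nested small RNA genes, of which there were 0. The count stayed at 10 intervals with gene numbers as listed and with any overlap of 1 nt, and was 8 above the whole list's median height of 7 tags, still in 3 genes. The median height was 13 tags without DST and 9 without MACF1 or without PLEC. The median ratio of height to expected height was 8.81, in place of 200.0, with 1 tag added to both heights, which moves low expected heights such as 0.03 most; over all protein-coding intervals it was then 7.61. With 1 pooled list, replicates could not be left out. No paired analysis was possible because the list gives no value for a single library. Depth limits the heights: those of 6 to 13 tags overlap in counting error.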
